A study of Mus musculus with 6 samples.

Results

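The genes described here carry an interferon signal from the cell surface to the nucleus. They comprise the interferon receptor chains Ifnar1, Ifnar2, Ifngr1 and Ifngr2, the signal transducer Stat2, the interferon regulatory factors Irf1, Irf7 and Irf9, and the inhibitor Socs1. They were listed by name, with earlier results of these data known, and all 9 were found among the 16894 genes of the table and passed the filter that left 14776 genes for testing.

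Fibroadipogenic progenitors, abbreviated FAPs, are the mesenchymal stromal cells of skeletal muscle and a source of scar tissue and fat in it. RNA-seq had been performed on 3 control and 3 senescent cultures of primary FAPs from C57BL/6 mice, male and female and 3 to 6 months of age, sorted magnetically as CD45-/CD31-/α7-integrin-/SCA-1+ cells and grown with fetal bovine serum and recombinant human bFGF. Senescent FAPs had received 20 μM etoposide, a drug that makes topoisomerase II break DNA, for 48 h and then 5 days of normal medium, whereas control FAPs were labelled non-senescent, with no vehicle or culture time given. Neither the labels nor the methods say whether cultures came from separate animals, so the p-values measure the spread between these cultures, which may be technical.

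Interferons are secreted proteins that warn neighboring cells of infection or damage. Type I interferons, such as IFN-α and IFN-β, bind a receptor made of IFNAR1 and IFNAR2, and IFN-γ binds a receptor made of IFNGR1 and IFNGR2. Kinases of the JAK family attached to these chains then phosphorylate STAT proteins. STAT2 and IRF9 are parts of the factor ISGF3, which binds interferon-stimulated response elements (ISRE), while pairs of STAT proteins bind gamma-activated sites (GAS), and SOCS1 feeds back on the kinases.

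Genes received 48865531 to 59912520 reads in control libraries and 41412179 to 54975944 reads in senescent libraries. The authors deposited CPM, read counts relative to a library size that includes edgeR scaling factors, and a single read was worth 0.0167 to 0.0225 CPM. Those factors were 0.917 to 0.940 in control and 1.07 to 1.09 in senescent libraries. Pdgfra, the receptor that marks FAPs, lay between 126 and 254 CPM in every library. Cdkn1a, the cell cycle inhibitor p21, rose by 1.85 on the log2 scale and the proliferation marker Mki67 fell by 3.55, while Cdkn2a differed by 0.13 and did not pass the test (limma, Benjamini-Hochberg adjusted p = 0.765). By qPCR the authors reported increased p16, which Cdkn2a encodes, in etoposide-treated FAPs. The value here is for the gene as a whole.

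Of the 9 genes, 5 were higher and 1 was lower in senescent than in control FAPs, and 3 did not pass the test (limma on log2(CPM + 0.5), Benjamini-Hochberg adjusted p under 0.05 over all 14776 genes). By the same rule 46.1% of all genes tested were called, 21.8% higher and 24.3% lower. Irf7, Stat2, Irf9, Ifngr2 and Ifngr1 rose, Ifnar1 fell, and Ifnar2, Irf1 and Socs1 did not pass. The median log2 fold change of the 9 genes was 0.39, beside a median of -0.03 over all genes tested. Fold changes are on the log2(CPM + 0.5) scale, which understates changes of low genes, and positive values mean higher in senescent FAPs.

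**Figure D1:**
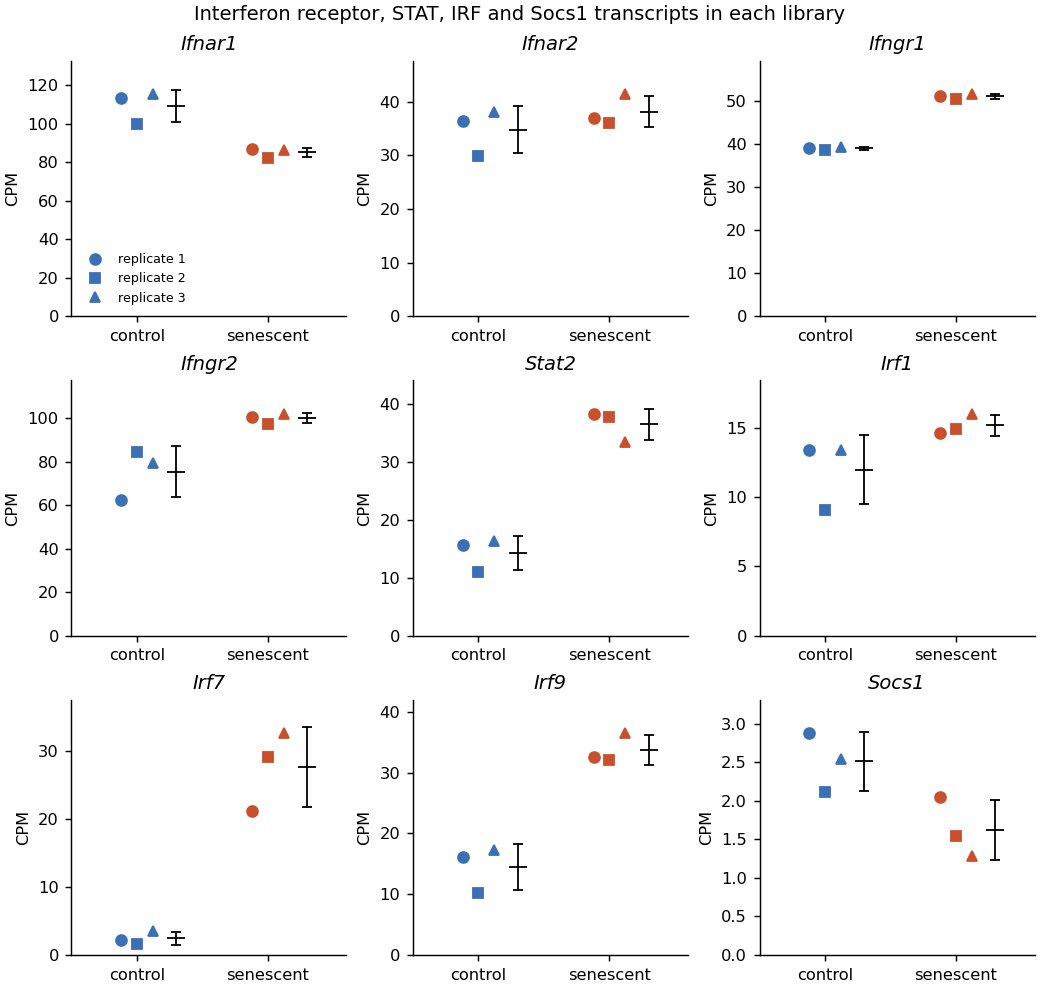
Expression of the 9 genes in CPM in each of the 3 control and 3 senescent libraries, with symbols for the replicate numbers and a horizontal mark with bars for the mean and SD of each group. The groups were apart for 8 of the 9 genes, beside 57.4% of all genes tested, and overlapped for Ifnar2, while Irf7 lay between 1.67 and 3.54 CPM in control libraries and between 21.2 and 32.6 CPM in senescent libraries.

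Among the genes of the type I receptor, Ifnar1 fell and Ifnar2 did not pass the test. Ifnar1 encodes the chain that carries the kinase TYK2, and was at 113, 99.9 and 115 CPM in control replicates 1, 2 and 3 and at 86.8, 82.3 and 86.2 CPM in senescent replicates 1, 2 and 3. Every senescent library was below every control library. On the log2 scale Ifnar1 changed by -0.36 ± 0.08 (SE, n = 3 per group) with a 95% confidence interval from -0.54 to -0.18 (limma, adjusted p = 0.00812), and the mean CPM was 1.29 times as high in control FAPs. Ifnar2, which encodes the high-affinity chain that carries JAK1, was at 36.4, 29.8 and 38.1 CPM in control FAPs and at 37.0, 36.0 and 41.4 CPM in senescent FAPs. These ranges overlapped, and the log2 fold change of 0.14 ± 0.11 (SE, n = 3 per group) had an interval from -0.12 to 0.40 (limma, adjusted p = 0.347).

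The size of the Ifnar1 fall, and whether it passed the test, depended on the scaling between libraries, while its direction did not. With division by library totals only, the median of all genes moved from -0.03 to 0.17, and the Ifnar1 value became -0.15 (limma, adjusted p = 0.141). Relative to the median of all genes, Ifnar1 stood at -0.33 with the deposited scaling and at -0.31 with library totals. Under library totals Ifnar2 was called higher at 0.35 (limma, adjusted p = 0.0311), which is 0.18 above the median of all genes, and with limma's array weights its value turned to -0.0096. A ratio of both genes inside a library does not depend on this scaling. The log2 ratio of Ifnar2 to Ifnar1 was -1.62, -1.73 and -1.59 in control libraries and -1.22, -1.18 and -1.05 in senescent libraries, so that every senescent ratio was above every control ratio. The groups differed by 0.50 ± 0.07 (SE, n = 3 per group, p = 0.1 by a two-sided exact permutation test). No comparison of 3 with 3 libraries can give a smaller p, and this value was reached by 5 of the 8 ratios compared, each with a Benjamini-Hochberg adjusted p of 0.16 over the 8 exact tests.

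Both chains of the IFN-γ receptor rose. Ifngr1 encodes the ligand-binding chain, and was at 39.2, 38.6 and 39.3 CPM in control FAPs and at 51.2, 50.6 and 51.6 CPM in senescent FAPs. The replicates lay close together in either group, and the groups were far apart compared with that spread. On the log2 scale Ifngr1 rose by 0.39 ± 0.07 (SE, n = 3 per group, limma adjusted p = 0.00308), with a 95% confidence interval from 0.23 to 0.54. Ifngr2, whose product carries JAK2 into the complex, was at 62.4, 84.5 and 79.5 CPM in control FAPs and at 100.4, 97.5 and 102.1 CPM in senescent FAPs. All senescent libraries were above all control libraries, with control replicate 1 lowest. Ifngr2 rose by 0.42 ± 0.11 on the log2 scale (SE, n = 3 per group, limma adjusted p = 0.0209), with a 95% confidence interval from 0.15 to 0.68. Without senescent replicate 1, 2 or 3 in turn the value was 0.41, 0.43 and 0.40, and none of these passed (limma, adjusted p = 0.0511, 0.0587 and 0.0698).

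The ratio of Ifngr2 to Ifngr1 overlapped between the groups, with a log2 difference of 0.03 ± 0.14 (SE, n = 3 per group, p = 1.0 by the exact test). By contrast, the log2 ratio of Ifngr1 to Ifnar1 lay from -1.54 to -1.36 in control libraries and from -0.75 to -0.70 in senescent libraries, a difference of 0.74 ± 0.06 (SE, n = 3 per group, p = 0.1 by the exact test). The lowest senescent ratio was well above the highest control ratio.

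Divided by the length of the principal transcript, the order of the receptor chains differed between the groups. In control FAPs the mean level was 28.0 CPM per kb for Ifnar1, 20.4 for Ifngr2, 18.5 for Ifngr1 and 11.4 for Ifnar2, and of the neighbors in this order only Ifngr2 and Ifngr1 overlapped between libraries. In senescent FAPs Ifngr2 was first at 27.0 CPM per kb, followed by Ifngr1 at 24.2, Ifnar1 at 21.8 and Ifnar2 at 12.5, with no overlap between neighbors. Ifnar2 was the lowest receptor chain per kb in both groups.

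**Figure D2:**
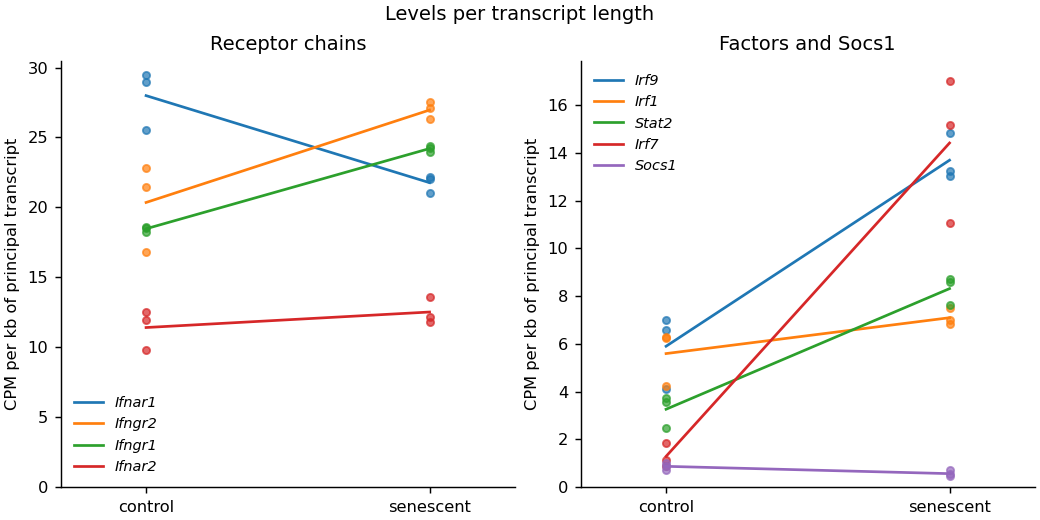
Levels in CPM per kb of principal transcript for the receptor chains (left) and for the factors and Socs1 (right), with a point for each library and lines that join the means of 3 control and 3 senescent libraries. The mean of Ifnar1 went from 28.0 to 21.8 CPM per kb and crossed those of Ifngr2 and Ifngr1, and the mean of Irf7 went from 1.28 to 14.4 CPM per kb.

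Of the 4 receptor genes, 3 lie within 192.8 kb of mouse chromosome 16 and on the same strand. In GENCODE M21 on the mm10 assembly these are Ifnar2 (chr16:91372783-91405589), Ifnar1 (chr16:91485238-91507441) and Ifngr2 (chr16:91547072-91565623), and Ifngr1 lies on chromosome 10 (chr10:19591949-19610229). These neighbors went in different directions, since Ifnar1 fell and Ifngr2 rose. Il10rb, the receptor chain shared by interleukin-10 and IFN-λ, lies between Ifnar2 and Ifnar1 and rose by 0.35 on the log2 scale (limma, adjusted p = 0.0194), a call that was lost without senescent replicate 2 or 3 (limma, adjusted p = 0.0624 and 0.0664). The annotated gene Gm21970 shares 13869 bases with Ifnar2 on the same strand, so reads counted for Ifnar2 may be split with it, and its own log2 fold change was 0.19 (limma, adjusted p = 0.178).

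**Figure D3:**
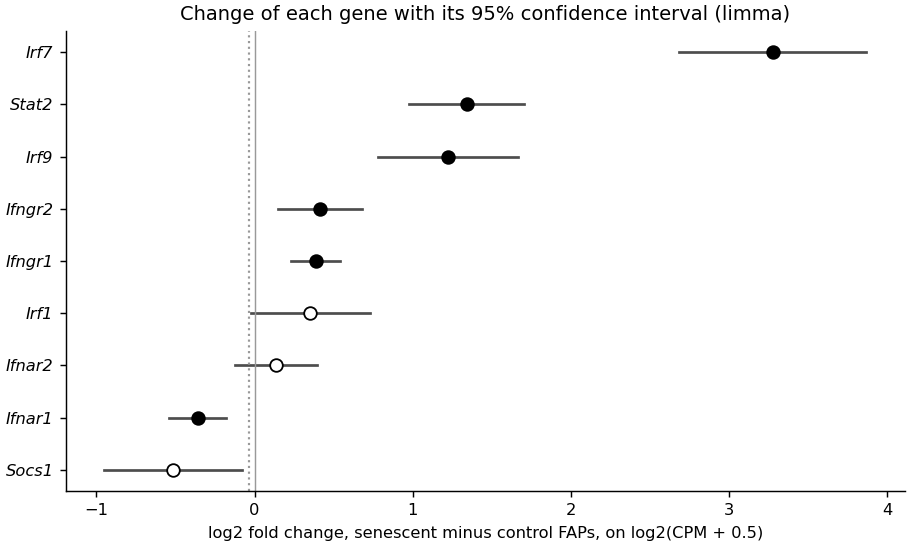
Log2 fold change of each of the 9 genes, senescent minus control FAPs, on log2(CPM + 0.5), with 95% confidence intervals from limma over 3 libraries per group. Filled points passed an adjusted p under 0.05 and open points did not, the dotted line is the median of all genes tested at -0.03, and the points run from 3.28 for Irf7 to -0.51 for Socs1.

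The sequence upstream of these genes was searched for ISRE and GAS letters, since both elements are where ISGF3 and STAT pairs bind. RefSeq windows on GRCm38.p6, from 250 bases before to 50 bases after a start, were found for all 9 genes and searched on both strands for GAAANNGAAA (ISRE, TTTCNNTTTC on the other strand) and for the palindrome TTCNNNGAA (GAS), with overlapping matches counted. Of all 32851 windows of this length, 3.44% held the ISRE letters and 8.30% the GAS letters, and of the 27025 genes with a window 3.99% held the ISRE letters and 9.55% the GAS letters in any window. Stat2 and Socs1 held the ISRE letters. Ifnar1 (TTCACGGAA), Ifnar2 (TTCCTGGAA) and Irf1 (TTCCCCGAA) held the GAS letters, and Ifngr1, Ifngr2, Irf7 and both windows of Irf9 held neither. The sequences before the start are shown for Stat2, Irf1 and Socs1, which hold the matches discussed, and for Irf7, which changed most. They are written 5′ to 3′ on the strand of the gene, with matched letters in capitals, for Stat2 (chr10:128270248-128270497, plus strand), Irf1 (chr11:53769764-53770013, plus strand), Socs1 (chr16:10785537-10785786, minus strand) and Irf7 (chr7:141266482-141266674, minus strand, ending where GENCODE M21 places the first exon).
Stat2: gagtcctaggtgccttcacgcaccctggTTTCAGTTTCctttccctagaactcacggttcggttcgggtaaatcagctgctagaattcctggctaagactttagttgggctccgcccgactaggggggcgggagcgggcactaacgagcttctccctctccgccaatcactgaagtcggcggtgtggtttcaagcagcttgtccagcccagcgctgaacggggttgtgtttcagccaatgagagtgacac
Irf1: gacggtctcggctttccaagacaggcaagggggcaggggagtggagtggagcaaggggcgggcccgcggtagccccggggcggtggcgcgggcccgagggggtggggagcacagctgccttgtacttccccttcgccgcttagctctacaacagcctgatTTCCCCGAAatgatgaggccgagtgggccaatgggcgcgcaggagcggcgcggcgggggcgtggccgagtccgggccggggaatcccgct
Socs1: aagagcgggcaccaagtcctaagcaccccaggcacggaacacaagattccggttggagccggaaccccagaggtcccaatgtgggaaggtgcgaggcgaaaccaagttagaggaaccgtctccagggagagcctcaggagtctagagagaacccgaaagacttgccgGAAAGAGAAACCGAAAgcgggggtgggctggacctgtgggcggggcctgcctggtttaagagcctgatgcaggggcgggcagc
Irf7: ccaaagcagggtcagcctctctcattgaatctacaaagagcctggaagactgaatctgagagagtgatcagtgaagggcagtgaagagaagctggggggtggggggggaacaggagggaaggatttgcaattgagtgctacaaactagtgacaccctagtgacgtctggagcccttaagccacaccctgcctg

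In Stat2 the match begins 222 bases before the start and reads TTTCAGTTTC. In Irf1 the GAS match begins 90 bases before the start. In Socs1 the matches GAAAGAGAAA and GAAACCGAAA begin 83 and 77 bases before the start and overlap. Stat2 rose, while Irf1 and Socs1 did not pass the test, and Irf7 rose most with no match in its window. A match does not show binding, and elements with other letters or outside the window are missed. The lack of a match therefore does not show that a gene lacks such an element. A link between these letters and the changes was not tested. Among the ISGF3-type targets described further on, 11 of the 18 genes with a window held the ISRE letters and 4 the GAS letters, and among the interferon-gamma-type targets 7 and 4 of 13. Of the interferon ligand genes, which were not tested, 11 of 20 held the ISRE letters and 10 the GAS letters. All the ISRE matches were in Ifna genes and Ifnab, related genes on chromosome 4, and most GAS matches there read TTCAGAGAA. These genes are therefore not independent counts beside the shares over all genes.

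The transcription factors Stat2, Irf9 and Irf7 rose most among the 9 genes, each past the study's cutoff, which asks for a log2 fold change beyond 1 and a p below 0.01 before adjustment. The authors used edgeR, whereas the cutoff was applied here to the limma fit, so the genes passing it can differ from theirs. This cutoff was passed by 10.8% of all genes tested, with 6.93% higher and 3.9% lower. Stat2 encodes the STAT specific to type I and type III interferon signaling (chr10:128270559-128292849). It was at 15.6, 11.0 and 16.4 CPM in control FAPs and at 38.4, 37.8 and 33.5 CPM in senescent FAPs, so that the lowest senescent library was above the highest control library. Stat2 rose by 1.34 ± 0.16 on the log2 scale (SE, n = 3 per group, limma adjusted p = 6.60e-04), with a 95% confidence interval from 0.98 to 1.70.

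Irf9 encodes the DNA-binding part of ISGF3 (chr14:55603571-55610030). It was at 16.2, 10.1 and 17.2 CPM in control FAPs and at 32.6, 32.0 and 36.5 CPM in senescent FAPs. The groups were apart, and control replicate 2 was again the lowest library. Irf9 rose by 1.22 ± 0.19 on the log2 scale (SE, n = 3 per group, limma adjusted p = 0.00206), with a 95% confidence interval from 0.78 to 1.66. Irf9 shares 123 bases with Rnf31, a ubiquitin ligase gene on the same strand, where reads could be split, and Rnf31 had a log2 fold change of -0.06 (limma, adjusted p = 0.798). The log2 ratio of Irf9 to Stat2 overlapped between the groups, with a difference of -0.12 ± 0.13 (SE, n = 3 per group, p = 0.4 by the exact test).

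Irf7 changed most of the 9 genes and stood at rank 24 of 14776 by log2 fold change. It encodes the factor that drives the later wave of type I interferon genes (chr7:141262706-141266481). It was at 2.16, 1.67 and 3.54 CPM in control FAPs, from 88 to 197 reads, and at 21.2, 29.1 and 32.6 CPM in senescent FAPs, from 1067 to 1739 reads. The groups were far apart, and senescent replicate 1 was the lowest senescent library. Irf7 rose by 3.28 ± 0.25 on the log2 scale (SE, n = 3 per group, limma adjusted p = 1.98e-04), with a 95% confidence interval from 2.69 to 3.87, and the ratio of mean CPM was 11.2. Phrf1, which overlaps Irf7 by 45 bases on the opposite strand, fell by 0.41 on the log2 scale (limma, adjusted p = 0.00311). The log2 ratio of Irf7 to Irf3, the related factor that is present before stimulation, rose from between -3.34 and -2.38 in control libraries to between -0.21 and 0.58 in senescent libraries, a difference of 3.28 ± 0.40 (SE, n = 3 per group, p = 0.1 by the exact test).

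Irf1, a factor induced by IFN-γ through GAS sites (chr11:53770014-53778374), did not pass the test. Gm17334, which overlaps Irf1 by 907 bases on the opposite strand, was not analysed here. Irf1 was at 13.4, 9.07 and 13.4 CPM in control FAPs and at 14.6, 14.9 and 16.0 CPM in senescent FAPs. The groups did not overlap, but control replicates 1 and 3 lay close to the senescent libraries. The log2 fold change was 0.35 ± 0.16 (SE, n = 3 per group, limma adjusted p = 0.111), with a 95% confidence interval from -0.02 to 0.73, and without control replicate 2 it was 0.17 (limma, adjusted p = 0.210). With library totals only the value was 0.56 and passed the test (limma, adjusted p = 0.0215), 0.39 above the median of all genes in that setting. The ratio of Irf1 to Irf2, a related factor that competes for the same sites, differed by 0.21 ± 0.11 (SE, n = 3 per group, p = 0.3 by the exact test) on the log2 scale.

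Socs1, the inhibitor of JAK kinases, was the gene with the fewest reads over the 6 libraries together (chr16:10782240-10785536), from 111 to 142 in control and from 57 to 103 in senescent libraries. It was at 2.88, 2.11 and 2.55 CPM in control FAPs and at 2.05, 1.54 and 1.28 CPM in senescent FAPs. Every senescent library was below every control library, although senescent replicate 1 was close to control replicate 2. The log2 fold change was -0.51 ± 0.19 (SE, n = 3 per group, limma adjusted p = 0.0563), with a 95% confidence interval from -0.95 to -0.08, so that its adjusted p was just above the threshold of 0.05. With the replicate number as a block in the fit Socs1 passed the test (limma, adjusted p = 0.0387). It also passed without control replicate 2 or without senescent replicate 1 (limma, adjusted p = 0.0367 and 0.0322). The log2 ratio of Socs1 to Irf1 was -2.04, -1.87 and -2.19 in control libraries and -2.57, -2.92 and -3.21 in senescent libraries, a difference of -0.86 ± 0.21 (SE, n = 3 per group, p = 0.1 by the exact test).

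The groups did not overlap for 8 of the 9 genes, 6 with senescent libraries higher and 2 with senescent libraries lower. Over all genes tested, 57.4% did not overlap, 26.5% with senescent libraries higher and 30.9% with senescent libraries lower. Control replicate 2 was the lowest control library for 8 of the 9 genes, the exception being Ifngr2, while it was the lowest for 38.9% of all genes tested. Without it, the log2 fold changes of Irf7, Stat2 and Irf9 were 3.08, 1.16 and 0.99, and all 3 still passed (limma, adjusted p = 9.28e-05, 1.41e-04 and 2.67e-04), although Irf9 was then no longer past the study's cutoff. With array weights Irf9 was at 0.97 and also short of that cutoff. The coefficient of variation between replicates was smaller in senescent than in control FAPs for 7 of the 9 genes, the exceptions being Ifngr1 and Socs1, and for 61.0% of all genes tested.

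Per kb of transcript, Irf9 and Irf1 led the factors in control FAPs at 5.90 and 5.59 CPM per kb and overlapped each other, followed by Stat2 at 3.26, Irf7 at 1.28 and Socs1 at 0.864, of which Irf7 and Socs1 overlapped. In senescent FAPs Irf7 at 14.4 and Irf9 at 13.7 CPM per kb led and overlapped, followed by Stat2 at 8.32, Irf1 at 7.10 and Socs1 at 0.558. Irf7 thus moved from the lower end of the factors to the upper end.

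The rest of the pathway was described from lists written by role. Of the 107 genes described from these lists, 80 had a line in the table and 77 were tested, of which 43 were higher and 5 were lower, where 21.8% of all genes tested were higher and 24.3% lower. Some of the 43 passed the filter on low values only through their senescent libraries. With both target lists set aside, 38 genes were tested, of which 4 were higher, 5 were lower and 29 did not pass. The 21 interferon ligand genes, Stat4 and Irf4 were not analysed here.

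The kinases that act directly below the receptors did not pass the test as fitted without pairing. The log2 fold change was 0.26 for Jak1, -0.23 for Jak2, 0.05 for Jak3 and -0.01 for Tyk2, with a list median of 0.02. With the replicate block Jak1 was called higher and Jak2 lower (limma, adjusted p = 0.0371 and 0.0415). Stat3, Stat5a, Stat5b and Stat6, which serve other cytokines, had values from -0.14 to 0.06 and did not pass.

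Of the other IRF genes, Irf5, a factor of inflammatory cytokine induction, was lower. It was at 27.2, 16.0 and 16.4 CPM in control FAPs and at 15.5, 9.62 and 7.47 CPM in senescent FAPs, with a log2 fold change of -0.86 ± 0.29 (SE, n = 3 per group, limma adjusted p = 0.0435). The call was lost without control replicate 1 or 3 or senescent replicate 2 or 3 (limma, adjusted p from 0.0619 to 0.144), and under 4 other settings (adjusted p from 0.0529 to 0.0952). Irf2 and Irf3 did not pass, at 0.15 and -0.01, and Irf8 was below the filter on low values.

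Among 18 inhibitors tested, 1 was higher and 4 were lower (all genes tested: 21.8% and 24.3%), with a list median of -0.17. Usp18, an enzyme that removes ISG15 and blocks signaling at IFNAR2, went from 0.714, 1.24 and 1.90 CPM in control FAPs to 17.0, 20.6 and 21.3 CPM in senescent FAPs. Its senescent libraries were all above its control libraries, and the log2 fold change was 3.54 ± 0.25 (SE, n = 3 per group, limma adjusted p = 1.43e-04). The cytokine signaling suppressors Socs3 and Socs2 fell by 1.12 and 0.67 on the log2 scale, and the phosphatase genes Ptpn1 and Ptpn2 fell by 0.75 and 0.55. The ratio of Socs1 to Socs3 was higher in all senescent than in all control libraries, with a log2 difference of 0.60 ± 0.20 (SE, n = 3 per group, p = 0.1 by the exact test).

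Of 8 genes for adaptors and kinases that activate IRF3 and IRF7, 2 were higher and none lower (all genes tested: 21.8% and 24.3%). Ikbke, which encodes a kinase of these factors, was at 15.0, 12.1 and 14.6 CPM in control FAPs and at 23.1, 26.1 and 23.8 CPM in senescent FAPs, with a difference on the log2 scale of 0.79 ± 0.11 (SE, n = 3 per group, limma adjusted p = 0.00143). Irak1, a kinase that acts on IRF7 below Toll-like receptors, rose by 0.33 (limma, adjusted p = 0.0213), and lost the call without control replicate 3 or senescent replicate 1 or 2 (limma, adjusted p = 0.0746, 0.0625 and 0.0695). Tbk1, Traf3, Myd88, Ticam1, Mavs and Traf6 did not pass, although Traf6, at -0.24, was called lower with the replicate block (limma, adjusted p = 0.0494).

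All tested genes of both target lists were higher in senescent FAPs. These were 23 genes of the type that ISGF3 drives, with a median log2 fold change of 2.48, and 16 genes of the type that IFN-γ induces, with a median of 1.90, where the median of all genes tested was -0.03. Many of them were already known to rise in these libraries when the lists were written, so their direction is not independent evidence. Some of them, such as Mx1 and Oas2, reached the filter of 0.5 CPM only in senescent libraries. Such genes could be tested only because they were high there. With a filter at 2 CPM, 34 pathway genes were higher rather than 43. That filter also counts libraries of either group, so it does not remove this selection. Ifit1 and Ifit3, for example, were below 2 CPM in every control library and passed only through the senescent ones. Largest in the first list were the antiviral effectors Ifit3 and Ifit1 at 4.44 and 4.35, followed by Oasl2, which went from between 2.30 and 2.83 CPM to between 32.6 and 41.9 CPM, and by the ubiquitin-like modifier Isg15, which went from between 3.29 and 4.47 CPM to between 44.5 and 54.0 CPM. Largest in the second list were Iigp1, Irgm2, Gbp3 and Igtp, GTPases that act on intracellular pathogens, at 3.02, 3.00, 2.95 and 2.78. Ifit3 and Ifit3b are close copies, and Oasl2, Gbp3, Irgm2, Igtp and Iigp1 belong to families of related genes, between which reads could be split. Ifit3 went from 1.63, 1.73 and 1.56 CPM to 40.7, 44.8 and 53.3 CPM.

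**Figure D4:**
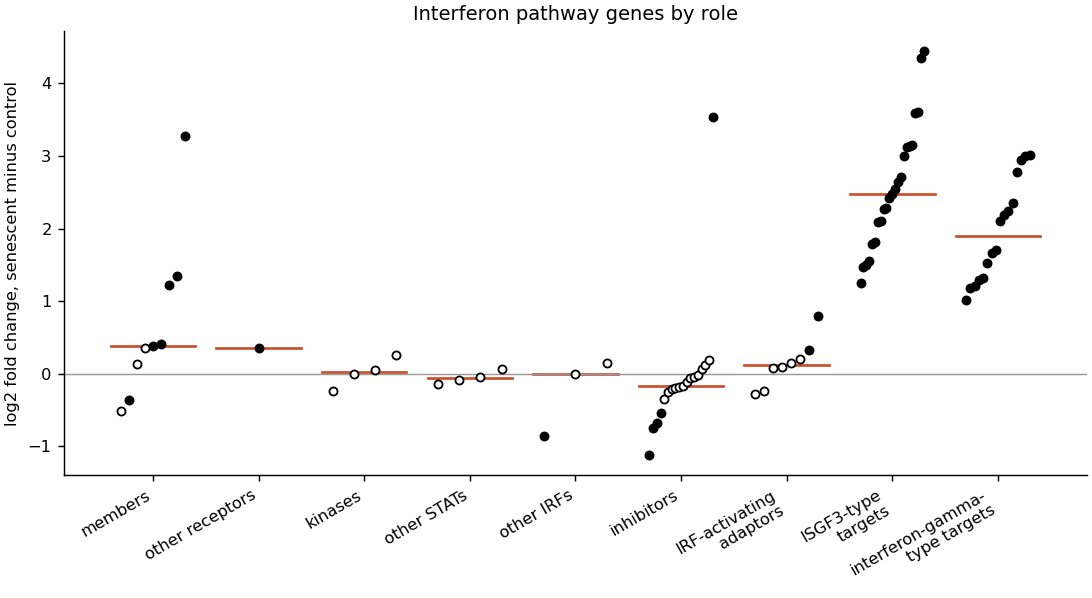
Log2 fold change, senescent minus control FAPs on log2(CPM + 0.5), of the 9 genes (members) and of the other tested interferon pathway genes by role, with filled points for an adjusted p under 0.05 (limma, 3 libraries per group), open points for the rest and red lines for list medians. The medians were 2.48 and 1.90 in the target lists and between -0.17 and 0.39 in the others.

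Markers of other cell types were examined because these are bulk libraries, in which fewer cells of a type and less RNA per cell cannot be told apart. The summed level of the 3 leukocyte markers with a line (Cd53, Laptm5 and Coro1a, of 5 listed) was 1.03 to 4.28 CPM in control and 9.23 to 14.2 CPM in senescent libraries, nearly all of it Cd53. The summed level of 4 of 5 macrophage markers (Cd68, Csf1r, Lyz2 and Mrc1) was 9.96 to 10.5 CPM and 17.9 to 20.1 CPM, where Cd68 and Lyz2 rose by 1.43 and 1.53 on the log2 scale, Csf1r did not pass and Mrc1 stayed under 1 CPM. The defining markers Ptprc, Cd52 and Adgre1 were not analysed here. The summed level of 4 endothelial markers overlapped between the groups, with the highest library at 38.4 CPM in control and at 29.2 CPM in senescent FAPs, and was mostly Tek, while Pecam1 rose by 0.89 and Kdr fell by 0.74 on the log2 scale (limma, adjusted p = 0.00897 and 0.00989). The summed level of 5 mural markers was 4500 to 6459 CPM in control and 1653 to 2625 CPM in senescent libraries, most of it Acta2. Acta2 was at 4213 to 6067 CPM in control libraries, against 250 to 357 CPM for Cspg4 and 0.759 to 1.88 CPM for Rgs5. The sum thus follows Acta2 and is no measure of mural cells. Acta2, Mcam and Cspg4 fell by 1.49, 0.81 and 0.77 on the log2 scale, Rgs5 rose by 1.54 and Myh11 did not pass. The summed level of Itga7 and Des, the myogenic markers with a line, was 14.3 to 19.3 and 23.4 to 30.2 CPM. The part of any of these cells in the changes of the 9 genes was not tested. Of the FAP markers themselves, Ly6a, Cd34, Dcn and Lum rose, Col1a1 fell by 2.29, and Pdgfra and Pdgfrb did not pass.

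**Figure D5:**
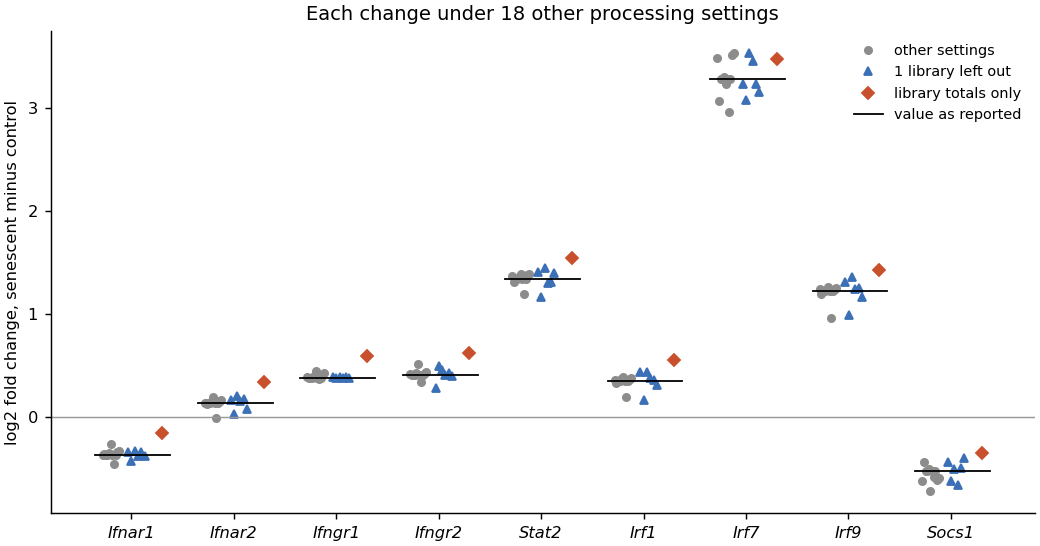
Log2 fold change of each of the 9 genes, senescent minus control FAPs, as reported (black lines) and under 18 other processing settings, of which 6 leave out 1 library (blue triangles), 1 uses library totals only (red diamonds) and the rest are gray points. Irf7 ranged from 2.96 to 3.53, while Ifnar2 ranged from -0.0096 to 0.35 around the line at 0.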

How the data were processed

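RNA from 3 control and 3 senescent FAP cultures was measured by RNA-seq with a TruSeq stranded mRNA kit. Per the submitters' processing notes in the labels, the authors used edgeR 3.10 in R 3.6.0 and the mm10 build. The aligner, counting tool, annotation, strand setting and filter on low counts are not given in the sources used here. The authors deposited 1 table of a normalized signal, namely CPM computed on edgeR's effective library sizes, with 16895 lines of which 1 named no gene (0.0041% to 0.0070% of reads, left out). Each value was a whole multiple of 1 read within a tolerance of 0.01 reads, for 100% of values, so whole reads were recovered.

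Genes that reached 0.5 CPM in 3 or more libraries were compared with limma 3.58.1 in R 4.3.3 on log2(CPM + 0.5), with a variance trend, two-sided tests and Benjamini-Hochberg adjustment over 14776 genes. edgeR 4.0.16 (quasi-likelihood test) on the recovered reads called 3261 genes higher and 3307 lower. Within-library ratios of 8 gene pairs were compared by exact permutation tests. The limma fit as reported and the edgeR and DESeq2 fits were tested on simulated data. There far fewer genes changed than here, equally up and down, with the same spread set for all genes. Such a test checks the code and not the accuracy of the fits on these data. Other settings were pseudocounts of 0.1 and 1, no filter or 2 CPM, other scalings, a replicate block, array weights, no variance trend, DESeq2 1.42.0 and leaving out each library.

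Deviations from group means of same-numbered cultures correlated at 0.54, 0.31 and 0.21, and those of differently numbered cultures at -0.36 to 0.15. Deviations cancel out within a group for each gene, so a positive correlation forces a negative one elsewhere. Part of this contrast is therefore built in. By this check, which comes from the data, the numbers may pair the cultures, least clearly for replicate 3. The limma fit as reported and the exact tests leave out such pairing. Paired by number, the exact test of the Ifnar2 to Ifnar1 ratio gave p = 0.25, the smallest it can give. Gene positions and principal transcript lengths came from GENCODE M21, and promoter windows from RefSeq. Some listed genes and 1 planned ratio are not reported here. The members and lists were chosen with earlier results of these data known. Named were all 9 genes, pathway genes by role, the 4 largest called changes of each target list, the 3 profiles closest to Stat2 and Irf9, and markers.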

Additional observations from a re-analysis of the deposited data

How the results depend on the processing

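Irf7, Stat2, Irf9 and Ifngr1 were called higher under all 18 alternatives. Ifnar1 stayed lower in all and lost the call with library totals only. That setting, which removes the deposited scaling, called 5056 genes higher and 1933 lower, and 7 of the 9 genes higher and 0 lower. With quantile normalization, the replicate block, array weights or no variance trend, 2 of the 9 genes were lower rather than 1, the added gene being Socs1 (limma, adjusted p = 0.0184, 0.0387, 0.00337 and 0.0414). With the replicate block 44 pathway genes were higher and 7 lower, rather than 43 and 5, the added genes being Jak1, Jak2 and Traf6, and no other call changed among the 9 genes and the lists. With array weights, which called 4519 of all genes higher and 5217 lower rather than 3218 and 3592, 12 pathway genes were lower rather than 5, and Ifnar2 turned to -0.0096 (limma, adjusted p = 0.915).

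Leaving out each library gave 2130 to 3405 genes higher, the lowest without senescent replicate 2, and 2416 to 3875 lower. Of the 9 genes, 4 to 5 were then higher and 1 to 2 lower (2 without control replicate 2 or senescent replicate 1), and 4 to 9 pathway genes were lower (9 without control replicate 2). The log2 ratio difference ranged from -0.10 to 0.12 for Ifngr2 to Ifngr1. The cause of these shifts was not tested. Of 692 values recomputed for 42 results, 653 were rated as unchanged. For fold changes this meant the same direction and side of the threshold, and for ratios the same direction. Counts of genes were rated more loosely, so that 34 rather than 43 pathway genes higher still passed as unchanged. Depth limits Socs1 most, at 57 to 142 reads, and intervals rest on 3 libraries per group.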

Other observations

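The genes whose log2 levels ran most like the mean of Stat2 and Irf9 over the 6 libraries were Ctsf, Sesn3 and Trafd1, with Pearson r of 0.999, 0.998 and 0.998. This is a description of 6 points that fall into the 2 groups, and 150 genes had an r above 0.98. Ctsf, a lysosomal cysteine protease, was at 18.9, 11.8 and 19.3 CPM in control FAPs and at 40.0, 40.0 and 41.2 CPM in senescent FAPs. Sesn3, a stress-induced regulator of growth signaling, went from 15.0, 11.9 and 16.6 CPM to 26.8, 26.4 and 26.3 CPM. Trafd1, a regulator of innate immune signaling, went from 25.7, 20.5 and 26.0 CPM to 36.7, 38.3 and 37.8 CPM. In all 3 genes, as in Stat2 and Irf9, control replicate 2 was the lowest library. This follows from choosing them by that likeness and is no further result.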
